A study of Mus musculus with 9 samples.

Results

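The collagen chain genes of the mouse were taken as every gene in the count tables whose symbol has the form Col, a number, a and a number, which gave 44 genes of the 56262 listed. RNA was measured by sequencing in cells sorted as LT-HSCs (long-term hematopoietic stem cells, the bone marrow cells from which blood is renewed for life) from wild-type C57BL/6 mice. Animals of the Control group had no treatment. The groups labelled 5-FU+Saline and 5-FU+FMT both had 5-FU at 250 mg/kg (5-fluorouracil, a chemotherapy drug toxic to cycling cells), followed by PBS in the first and by FMT in the second. FMT, which the labels do not spell out, was injected into a vein at a dose of 5 mg/kg on 3 days, day 1, day 4 and day 7. Cells of these groups were taken on day 8. Each group had 3 libraries. The sort took CD150+ cells that also carried Sca1 and c-Kit and lacked lineage markers; its last marker, written C48- in the labels, was read as CD48-. The labels do not say whether the libraries of a group came from separate mice, so p-values measure the spread between these libraries, which may be technical.

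Libraries held 11098031 to 19270976 counted read pairs and 22813 to 24237 genes with a count. A list of 8 stem cell and sort genes held Kit, Ly6a, Slamf1 and Cd48, which encode markers of the sort. It also held Procr, Hlf, Mecom and Ptprc, which are not among the sort markers named above. All 8 were detected in every group, with a summed level of 2011 to 2037 CPM in Control, 1382 to 1391 after 5-FU+Saline and 1643 to 1692 after 5-FU+FMT. The sum hides opposite directions, given below. CPM are counts per 1000000, with the library's size adjusted by TMM. RNA of Cd48, whose protein the gate selects against, was at 30.7 CPM in Control, 53.7 after 5-FU+Saline and 46.7 after 5-FU+FMT. The groups also stood apart in Xist, the RNA that silences 1 X chromosome in female cells. Xist was at 0.533 to 1.34 CPM in Control, 1183 to 1223 after 5-FU+Saline and 659 to 695 after 5-FU+FMT, and its reads cannot be told apart from those of its antisense neighbour without strand. Treatment and Xist level cannot be told apart in any comparison here.

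Collagens are the main structural proteins of the extracellular matrix. Each molecule is a triple helix of chains, and the chains of 1 molecule are often made from different genes, so that type I collagen combines the products of Col1a1 and Col1a2. Fibrillar collagens give bone and connective tissue their strength, type IV forms the networks of basement membranes under endothelium and other cells, and type VI forms beaded filaments around cells. In bone marrow most collagen is made by stromal, bone-forming and endothelial cells, and blood-forming cells meet it through integrins and other receptors.

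Sequence was printed for 3 of the 4 genes with 0 or 1 count in Control that were called higher after 5-FU, and for the pair of basement membrane genes that made up most of the collagen reads. For Col6a1, the other gene of the 4, the RefSeq window lies partly inside the gene as the count tables annotate it, so it was not printed. Promoters were matched by symbol for 35 of the 44 genes, in 38 windows from RefSeq on GRCm38.p6. The genes that encode the type III chain and the type VI chains alpha 2 and alpha 3 are shown for the 250 bases before their start, 5′ to 3′ on the gene's own strand. They lie at chr1:45311288-45311537 on the plus strand for Col3a1, chr1:90843972-90844221 on the minus strand for Col6a3 and chr10:76623631-76623880 on the minus strand for Col6a2. Capitals mark a TATAAA in Col3a1 and a CCGCCC in Col6a2, and none of the letters searched was found in the Col6a3 window.
Col3a1: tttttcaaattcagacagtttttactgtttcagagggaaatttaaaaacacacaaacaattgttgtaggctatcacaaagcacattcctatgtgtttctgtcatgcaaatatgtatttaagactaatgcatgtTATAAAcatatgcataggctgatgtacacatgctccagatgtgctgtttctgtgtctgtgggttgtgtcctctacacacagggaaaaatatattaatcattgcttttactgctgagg
Col6a3: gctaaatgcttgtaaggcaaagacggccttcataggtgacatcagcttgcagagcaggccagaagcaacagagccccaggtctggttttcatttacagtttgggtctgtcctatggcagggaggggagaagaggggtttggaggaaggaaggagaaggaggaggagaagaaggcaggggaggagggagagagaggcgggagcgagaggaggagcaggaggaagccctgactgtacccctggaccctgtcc
Col6a2: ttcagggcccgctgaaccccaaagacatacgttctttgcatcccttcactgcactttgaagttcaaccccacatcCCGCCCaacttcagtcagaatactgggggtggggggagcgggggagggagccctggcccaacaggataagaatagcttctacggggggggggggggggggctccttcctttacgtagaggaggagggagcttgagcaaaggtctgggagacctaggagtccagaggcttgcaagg

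These 3 genes rose together after 5-FU, but their upstream windows differed in base composition. GC content was 35.2% in Col3a1, 57.2% in Col6a3 and 59.2% in Col6a2, beside a median of 59.6% over the 35 matched collagen genes and 52.4% over all 32851 promoters. Searching the 250 upstream bases on both strands, GGGCGG or its reverse complement CCGCCC was found in 57.9% of the collagen windows (22 of 38) and in 32.7% of all promoters. CCAAT or ATTGG was found in 34.2% of the collagen windows (13) and 33.8% of all. TATAAA or TTTATA was found in 13.2% (5) and 12.4%. Such matches are letters in a window and say nothing of binding.

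Col4a1 and Col4a2, which encode the chains of the common basement membrane collagen, are transcribed away from each other on chromosome 8. Their annotated starts overlap by 22 bases, Col4a1 spanning 11198423 to 11312826 on the minus strand and Col4a2 11312805 to 11449287 on the plus strand (mm10). Both carry the CCAAT letters upstream, and the 30 bases around each match are printed on the gene's own strand, with the match in capitals. The Col4a1 site is at chr8:11312954-11312983, minus strand, with the match 145 bases before the start, and the Col4a2 site at chr8:11312761-11312790, plus strand, 32 bases before the start.
Col4a1: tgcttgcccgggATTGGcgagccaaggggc
Col4a2: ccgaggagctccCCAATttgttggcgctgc

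Each of the 44 collagen chain genes had a count in at least 1 library. A count was present in all 3 libraries of a group for 20 genes in Control, 35 after 5-FU+Saline and 30 after 5-FU+FMT, and no count was present for 6, 3 and 2 genes. Of the 44, 26 passed the filter on low counts and were tested, and 23 of these reached a group mean of 1 CPM. The filter asked for about 10 counts in 3 libraries. Because it can be met by 1 group alone, 7 genes (Col1a1, Col3a1, Col5a3, Col6a1, Col6a2, Col6a3 and Col27a1) passed only through the 5-FU groups and 4 (Col5a2, Col8a1, Col12a1 and Col14a1) only through 5-FU+Saline. Col4a4 and Col9a3 passed only through Control. A gene passed through a group if all 3 of its libraries were over the cutoff, and Col2a1 and Col15a1 passed with no such group. For the 13 genes the filter itself favours a difference between groups. The counts of changed genes below thus describe the tested genes and are no evidence about the family. The 18 genes that did not pass (Col4a3, Col4a6, Col6a4, Col6a5, Col6a6, Col8a2, Col9a1, Col9a2, Col10a1, Col11a1, Col13a1, Col17a1, Col19a1, Col22a1, Col24a1, Col25a1, Col26a1 and Col28a1) held 1 to 61 counts over all 9 libraries. None had a group mean above 0.608 CPM, the level of Col26a1 after 5-FU+Saline.

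After 5-FU and saline, RNA of collagen types I, III and VI and of Col4a1, Col4a2 and Col18a1 rose, while that of Col5a1, Col9a3, Col16a1, Col20a1 and Col23a1, among others, fell. Against Control, 15 of the 26 tested genes were higher and 7 lower at a Benjamini-Hochberg adjusted p under 0.05 over all 16595 genes tested, by the quasi-likelihood F test of edgeR. The background was high: 65.5% of all genes tested were called in this comparison, 32.8% as higher and 32.7% as lower. All 15 higher genes rose at least 2-fold, as did 6.51% of all genes tested, and 5 of the 7 lower genes fell at least 2-fold, as did 11.2%. The libraries of both groups did not overlap for 23 of the 26, beside 67.8% of all genes. The median log2 difference of the 26 was 1.68, and that of all genes was -0.02. Setting the 4 genes with 0 or 1 count in Control to their counting bounds or ratio could not move the first median, because those values all lie above it. Among the 11 genes that passed the filter in every group, 4 were higher, 5 lower and 2 not called, and their median was -0.44, the opposite sign. Over all 44 genes without the filter the median was 0.89, and over the 21 left by the stricter filter 2.79.

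With FMT after 5-FU, the same rule called 14 of the 26 genes lower than after 5-FU+Saline and 2 higher, where 36.9% of all genes were called (19.2% lower and 17.7% higher). Of the 14, 11 were lower by at least 2-fold, as were 1.61% of all genes, and of the 2, 1 (Col9a3) was higher by at least 2-fold, as were 3.53%. The median log2 difference was -0.88 over the 26 and 0.01 over all genes. Over the 11 genes that passed in every group it was 0.15, with 1 higher, 4 lower and 6 not called, and over all 44 without the filter -0.47. Libraries did not overlap for 18 genes, beside 46.3% of all. Against Control, 5-FU+FMT had 13 genes higher and 5 lower, where 46.6% of all genes were called (25% higher and 21.6% lower). By at least 2-fold 11 were higher and 2 lower, beside 3.48% and 3.2% of all genes. The median was 0.87, which the counting bounds again could not move, and -0.01 over all genes. Over the 11 genes that passed in every group it was -0.16, the opposite sign, with 4 higher and 4 lower. It was 0.91 over all 44 without the filter and 1.35 over the 21 of the stricter filter. Of the 26, 20 genes did not overlap, beside 52.7% of all. The 3 comparisons share libraries, so their counts are not independent.

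**Figure D1:**
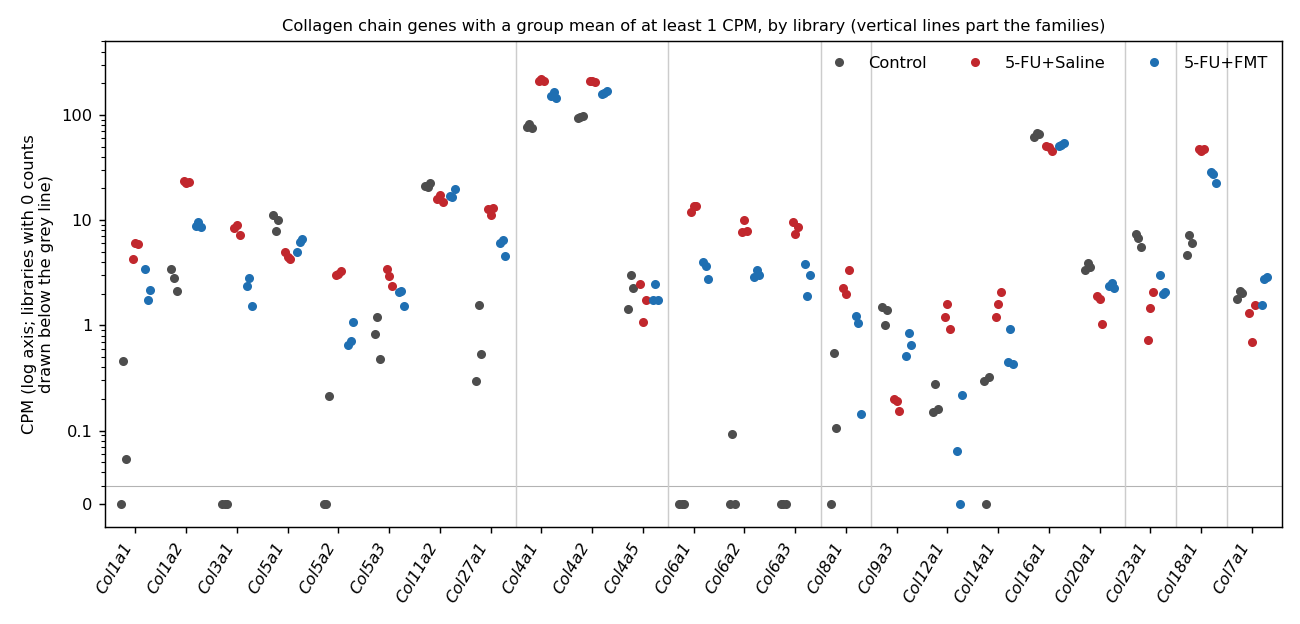
CPM (log axis) of the 23 collagen chain genes with a group mean of at least 1 CPM, 1 point per library, with 3 libraries each of Control (grey), 5-FU+Saline (red) and 5-FU+FMT (blue); points below the grey line are libraries with 0 counts. Col3a1, Col6a1 and Col6a3 have no count in any Control library, and Col4a1 and Col4a2 have the highest CPM in every group.

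Summed over the 44 genes, collagen reads were at 302 ± 7.52 CPM (SD, n = 3) in Control, 637 ± 7.64 after 5-FU+Saline and 466 ± 8.88 after 5-FU+FMT. The ranges, 294 to 309, 629 to 644 and 459 to 476, did not overlap. On the log2 scale 5-FU+Saline was 1.08 above Control, and 5-FU+FMT was 0.63 above Control and fell by 0.45 against 5-FU+Saline. In each comparison the exact permutation test, two-sided, gave p = 0.1, the smallest that 3 against 3 libraries allow. Col4a1 and Col4a2 made up 57.8% ± 0.372 of collagen counts in Control, 65.9% ± 0.474 after 5-FU+Saline and 68.0% ± 0.686 after 5-FU+FMT. Without them, an alternative chosen after seeing the data, the other 42 genes summed to 127, 217 and 149 CPM, log2 differences of 0.77, -0.54 and 0.23.

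Among basement membrane collagens, Col4a1 and Col4a2 rose after 5-FU. Col4a1 was at 77.3, 82.5 and 75.7 CPM in the Control libraries, 209, 218 and 210.3 after 5-FU+Saline and 150.2, 164 and 146 after 5-FU+FMT. Col4a2 was at 93.97, 95.5 and 98.3 CPM in Control, 209, 209.8 and 205 after 5-FU+Saline and 158, 161 and 169.9 after 5-FU+FMT. For both genes every 5-FU+Saline library lay above every 5-FU+FMT library, and every 5-FU+FMT library above every Control library. The fitted rise against Control was 2.71-fold for Col4a1 (log2 1.44 ± 0.04 SE, adjusted p = 5.62e-45) and 2.16-fold for Col4a2 (1.11 ± 0.04, adjusted p = 5.71e-40). With FMT both were lower than after 5-FU+Saline, by log2 -0.47 ± 0.04 (adjusted p = 1.1e-17) and -0.35 ± 0.04 (adjusted p = 2.04e-13), and both stayed above Control, by 0.97 ± 0.04 and 0.76 ± 0.04. Read per exon length, the ratio of Col4a1 to Col4a2 within a library was 0.727 ± 0.042 in Control, 0.905 ± 0.018 after 5-FU+Saline and 0.836 ± 0.070 after 5-FU+FMT. The Control and 5-FU+Saline ratios did not overlap.

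The other type IV chains were rare, and neither of the 2 tested was called higher. Col4a5, which encodes a chain of specialised basement membranes and lies on the X chromosome, was at 1.42, 3.03 and 2.24 CPM in Control, 2.45, 1.08 and 1.76 after 5-FU+Saline and 1.74, 2.46 and 1.73 after 5-FU+FMT. Its groups overlapped and it was not called in any comparison. Col4a4, at 0.746 to 0.969 CPM in Control, 0.155 to 0.382 after 5-FU+Saline and 0.129 to 0.217 after 5-FU+FMT, was lower than Control in both 5-FU groups, by log2 -1.55 ± 0.60 (adjusted p = 0.0194) and -2.33 ± 0.68 (adjusted p = 0.00319). It holds 36, 14 and 7 counts per group, and the first call was lost without the filter (adjusted p = 0.078), without Control replicate 1 (0.073) and without 5-FU+Saline replicate 3 (0.121). Col4a3, its neighbour, is transcribed away from it with 71 bases between their starts and was not tested, with 12, 15 and 6 counts. Col4a6, on the X chromosome beside Col4a5, was not tested either, with 15, 22 and 22 counts.

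Fibrillar collagens of types I, III and V rose after 5-FU, apart from Col5a1. Col1a2, the alpha 2 chain of type I collagen, was at 3.43, 2.84 and 2.13 CPM in Control, 23.7, 22.3 and 23.0 after 5-FU+Saline and 8.75, 9.62 and 8.67 after 5-FU+FMT. Col1a1, the alpha 1 chain, was at 0, 0.458 and 0.0533 CPM in Control, 4.30, 6.04 and 5.99 after 5-FU+Saline and 3.41, 1.76 and 2.17 after 5-FU+FMT. Col3a1, the chain of type III collagen that accompanies type I in soft tissue, had no count in Control and was at 8.46, 8.97 and 7.18 CPM after 5-FU+Saline and 2.38, 2.81 and 1.52 after 5-FU+FMT. In these 3 genes no library of any group overlapped another group. Against Control, 5-FU+Saline was 8.39-fold higher for Col1a2 (log2 3.07 ± 0.15, adjusted p = 5.05e-31) and 36.7-fold higher for Col1a1 (5.20 ± 0.45, adjusted p = 2.5e-17). The size of the Col1a1 fold is uncertain, as it rests on 6 Control counts, 5 of them in replicate 2. Col3a1 was at least 117-fold higher, taking 3 counts over the 3 Control libraries as the most that a count of 0 allows (adjusted p = 4.19e-25). Such bounds cover counting error only.

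With FMT, Col1a2, Col1a1 and Col3a1 were lower than after 5-FU+Saline, by log2 -1.35 ± 0.12 (adjusted p = 4.06e-16), -1.15 ± 0.27 (adjusted p = 0.000392) and -1.86 ± 0.23 (adjusted p = 1.76e-10). All were still above Control, Col1a2 by 3.29-fold, Col1a1 by 16.6-fold (on the same 6 Control counts) and Col3a1 by at least 32.2-fold. Type I collagen is built from Col1a1 and Col1a2 chains in a fixed proportion with more of the first. Per exon length, Col1a1 reads were nevertheless fewer than Col1a2 reads, with a ratio of 0.450 ± 0.092 after 5-FU+Saline and 0.519 ± 0.200 after 5-FU+FMT, which overlapped. The length counts every annotated exon base of a gene, 6563 for Col1a1 and 12426 for Col1a2, and can exceed that of the RNA present. Such ratios are therefore no measure of chain numbers. In Control the 6 counts of Col1a1 were too few for a ratio.

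Type V collagen, which helps set the width of type I fibrils, moved in opposite directions by chain. Col5a1 was at 11.1, 7.89 and 9.92 CPM in Control, 4.96, 4.45 and 4.29 after 5-FU+Saline and 4.95, 6.18 and 6.57 after 5-FU+FMT. Col5a2 was at 0, 0 and 0.213 CPM in Control, 3.04, 3.05 and 3.30 after 5-FU+Saline and 0.643, 0.702 and 1.08 after 5-FU+FMT. Col5a3 was at 0.820, 1.19 and 0.480 CPM in Control, 3.44, 2.93 and 2.38 after 5-FU+Saline and 2.06, 2.11 and 1.52 after 5-FU+FMT. Control was thus the highest group for Col5a1 and the lowest for Col5a2 and Col5a3. After 5-FU and saline, Col5a1 fell by 1.09 ± 0.17 on the log2 scale (adjusted p = 2.69e-08), while Col5a2 rose by 4.98 ± 0.57 (adjusted p = 3.38e-12) and Col5a3 by 1.87 ± 0.36 (adjusted p = 5.57e-06). The size of each Col5a2 difference from Control is uncertain, as Control held 4 counts, all in replicate 3. Per exon length, the ratio of Col5a2 to Col5a1 was 0.616 ± 0.070 after 5-FU+Saline and 0.121 ± 0.023 after 5-FU+FMT, without overlap, and the 4 counts of Col5a2 in Control were too few for a ratio. With FMT, Col5a2 was lower than after 5-FU+Saline (log2 -1.95 ± 0.39, adjusted p = 3.29e-05), and Col5a1 (0.37 ± 0.18) and Col5a3 (-0.61 ± 0.31) were not called, but Col5a1 was called higher without 5-FU+FMT replicate 1 (adjusted p = 0.0444). Against Control, 5-FU+FMT was lower for Col5a1 (-0.72 ± 0.16) and higher for Col5a2 (3.03 ± 0.69) and Col5a3 (1.26 ± 0.38); the Col5a3 call was lost without Control replicate 3 (adjusted p = 0.063).

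Col27a1, a fibrillar collagen of cartilage and other tissues, was at 0.298, 1.56 and 0.533 CPM in Control, 12.6, 11.1 and 12.9 after 5-FU+Saline and 6.11, 6.53 and 4.55 after 5-FU+FMT, and the 3 groups did not overlap. It rose 16.6-fold after 5-FU and saline (log2 4.06 ± 0.25, adjusted p = 4.67e-25) and was lower with FMT (-1.09 ± 0.17, adjusted p = 1.77e-07). Col11a2, known from cartilage, was at 21.3, 20.8 and 22.6 CPM in Control, 16.0, 17.2 and 14.9 after 5-FU+Saline and 16.9, 16.6 and 19.9 after 5-FU+FMT. It fell by 0.44 ± 0.10 on the log2 scale after 5-FU and saline (adjusted p = 9.54e-05) and was lower than Control with FMT (-0.28 ± 0.10, adjusted p = 0.0151), a call lost without the filter (0.078), without Control replicate 3 (0.079) and without 5-FU+FMT replicate 1 (0.077) or 2 (0.086). Col2a1, the main cartilage collagen, was at 0.0533 to 1.19 CPM over the 9 libraries, with overlapping groups, and was not called.

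Type VI collagen was the family nearest to 0 in Control and rose after 5-FU. Col6a1 had no count in Control and was at 12.03, 13.7 and 13.5 CPM after 5-FU+Saline and 3.99, 3.65 and 2.74 after 5-FU+FMT. Col6a2 had 1 count in Control, in replicate 2, and was at 7.73, 9.99 and 7.95 CPM after 5-FU+Saline and 2.89, 3.37 and 3.03 after 5-FU+FMT. Col6a3 had no count in Control and was at 9.52, 7.32 and 8.62 CPM after 5-FU+Saline and 3.86, 1.90 and 3.03 after 5-FU+FMT. All 3 chains together form the common type VI molecule, and in all 3 the groups stood apart in the order Control, 5-FU+FMT, 5-FU+Saline. Against Control, 5-FU+Saline was at least 189-fold higher for Col6a1 (adjusted p = 1.18e-31) and at least 122-fold higher for Col6a3 (adjusted p = 1.76e-25). For Col6a2 the ratio was 367, with a 95% counting interval of 65.5 to 14534 (adjusted p = 2.62e-26).

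With FMT the type VI genes were all lower than after 5-FU+Saline, by log2 -1.91 ± 0.18 for Col6a1 (adjusted p = 3.73e-15), -1.46 ± 0.21 for Col6a2 (adjusted p = 1.03e-08) and -1.52 ± 0.22 for Col6a3 (adjusted p = 1.28e-08). Against Control, 5-FU+FMT was at least 50.01-fold higher for Col6a1 and at least 42.4-fold higher for Col6a3, and the ratio for Col6a2 was 133 (23.5 to 5302). Per exon length, Col6a2 was at 0.343 ± 0.037 of Col6a1 after 5-FU+Saline and 0.483 ± 0.0998 after 5-FU+FMT, and Col6a3 at 0.239 ± 0.048 and 0.316 ± 0.112. These ratios depend on the annotated exon bases, 4380 for Col6a1, 8326 for Col6a2 and 11963 for Col6a3. Col6a1 and Col6a2 lie on chromosome 10 on the same strand, 85161 bases apart, and Col6a3 lies on chromosome 1. The related chains Col6a4, Col6a5 and Col6a6, clustered on chromosome 9, held 13, 4 and 8 counts in all.

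**Figure D2:**
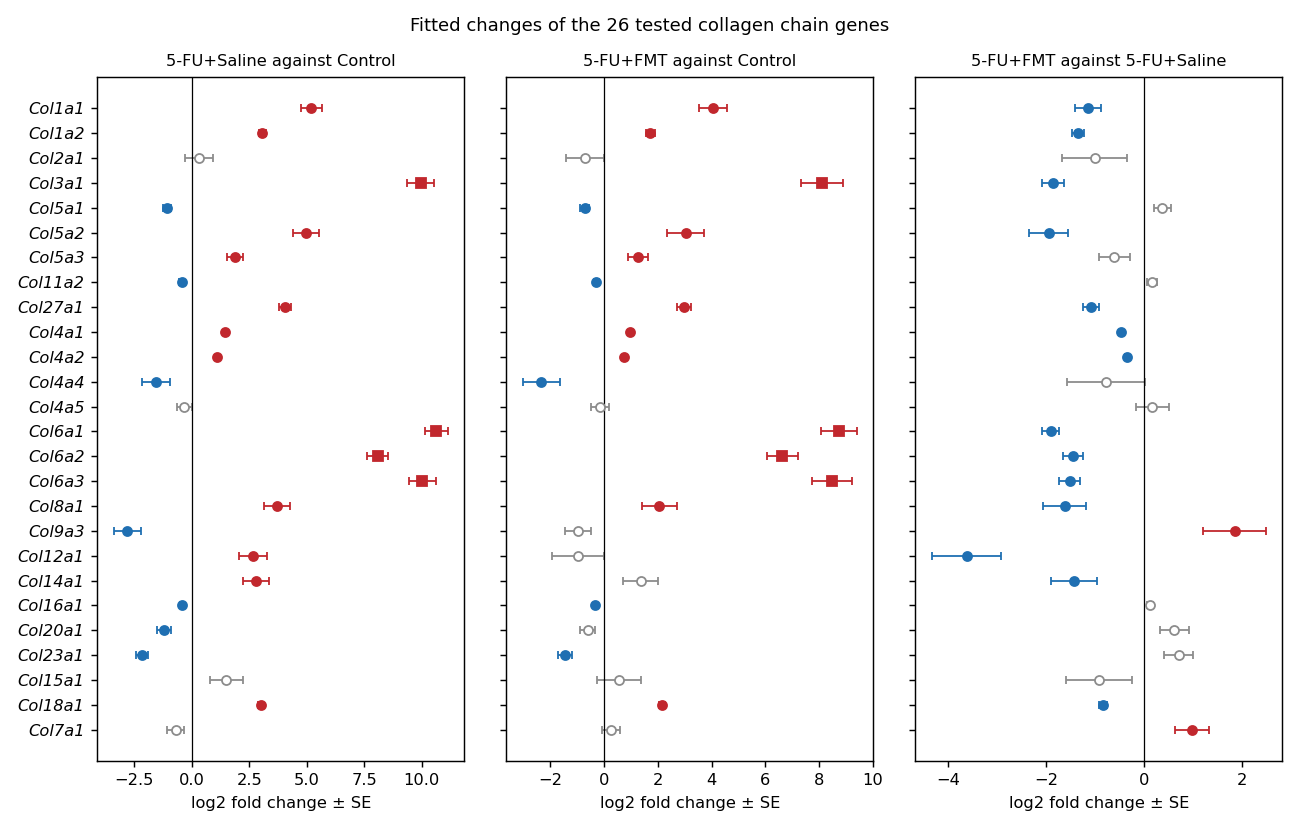
Fitted log2 fold change ± SE of the 26 tested collagen chain genes in the 3 comparisons, with its own axis range in each panel; red is called higher, blue called lower, and open grey not called. Squares mark Col3a1, Col6a1, Col6a2 and Col6a3, which have 0 or 1 count in Control, so that their fitted values against Control depend on the prior count and only the bounds in the text apply.

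Col18a1, a multiplexin of basement membranes whose end fragment is endostatin, was at 4.62, 7.24 and 6.02 CPM in Control, 47.9, 45.5 and 47.4 after 5-FU+Saline and 28.4, 27.6 and 22.7 after 5-FU+FMT. The 3 groups did not overlap. It rose 7.94-fold after 5-FU and saline (log2 2.99 ± 0.11, adjusted p = 4.95e-39) and was lower with FMT than with saline (-0.84 ± 0.08, adjusted p = 6.32e-14), while still 4.44-fold above Control. Col15a1, the other multiplexin, was at 0 to 0.836 CPM over all libraries and was not called. After 5-FU+Saline it was called higher than Control in limma-voom (adjusted p = 0.0275), without Control replicate 3 (0.0187) and without 5-FU+Saline replicate 2 (0.0454), and with FMT it was called lower than with saline without 5-FU+FMT replicate 1 (0.0182).

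Fibril-associated collagens, which sit on the surface of fibrils, went in both directions. Col16a1 had the highest CPM of this family, at 61.5, 67.6 and 66.5 in Control, 50.2, 49.1 and 45.4 after 5-FU+Saline and 50.3, 52.3 and 54.0 after 5-FU+FMT. Col20a1 was at 3.36, 3.94 and 3.57 CPM in Control, 1.92, 1.78 and 1.03 after 5-FU+Saline and 2.38, 2.53 and 2.24 after 5-FU+FMT. Col9a3, a chain of the type IX collagen of cartilage, was at 1.49, 1.01 and 1.39 CPM in Control, 0.198, 0.191 and 0.155 after 5-FU+Saline and 0.515, 0.843 and 0.650 after 5-FU+FMT. Control was highest in all 3, with no overlap with 5-FU+Saline. After 5-FU and saline Col16a1 fell by 0.44 ± 0.06 (log2, adjusted p = 1.06e-09), Col20a1 by 1.21 ± 0.29 (adjusted p = 0.000164) and Col9a3 by 2.81 ± 0.58 (adjusted p = 1.98e-05).

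With FMT, Col16a1 (0.12 ± 0.06) and Col20a1 (0.62 ± 0.30) were not called against 5-FU+Saline, and Col16a1 was lower than Control (-0.32 ± 0.06, adjusted p = 5.33e-06). Col20a1 was not called against Control (-0.60 ± 0.28, adjusted p = 0.069), but was with upper-quartile factors (0.0417). Col9a3 was higher with FMT than with saline (1.84 ± 0.64, adjusted p = 0.0167), on 29 against 9 counts, and lost that call without 5-FU+Saline replicate 3 (0.065) and without 5-FU+FMT replicate 2 (0.082). In Col9a3, 6.07% of exon bases overlap Tcfl5 on the other strand, the largest overlap with another gene among the 44.

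Col12a1 and Col14a1, which bind type I fibrils, rose. Col12a1 was at 0.149, 0.275 and 0.160 CPM in Control, 1.19, 1.59 and 0.929 after 5-FU+Saline and 0.0643, 0 and 0.217 after 5-FU+FMT. Col14a1 was at 0.298, 0 and 0.320 CPM in Control, 1.19, 1.59 and 2.07 after 5-FU+Saline and 0.450, 0.913 and 0.433 after 5-FU+FMT. For Col12a1 the 5-FU+FMT libraries overlapped those of Control, and for Col14a1 they lay between the other groups. After 5-FU and saline Col12a1 rose by log2 2.66 ± 0.63 (adjusted p = 0.000152) and Col14a1 by 2.79 ± 0.56 (adjusted p = 1.2e-05). With FMT, Col12a1 was lower than with saline by -3.63 ± 0.71 (adjusted p = 1.95e-05), on 4 against 61 counts, and Col14a1 by -1.44 ± 0.48 (adjusted p = 0.0126). The Col14a1 call was lost without 5-FU+Saline replicate 3 (0.099), 5-FU+FMT replicate 1 (0.072) or 5-FU+FMT replicate 3 (0.074). Neither gene was called between 5-FU+FMT and Control.

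The remaining families were 1 tested gene each. Col8a1, a short-chain collagen of vessel walls, was at 0, 0.5502 and 0.107 CPM in Control, 2.25, 1.97 and 3.36 after 5-FU+Saline and 1.22, 1.05 and 0.144 after 5-FU+FMT. It rose after 5-FU and saline (log2 3.69 ± 0.57, adjusted p = 3.42e-08), and 5-FU+FMT was lower than 5-FU+Saline (-1.63 ± 0.44, adjusted p = 0.0019) and higher than Control (2.06 ± 0.66, adjusted p = 0.00753). DESeq2 called neither FMT difference (adjusted p = 0.179 and 0.127), and the second was also lost without Control replicate 1 (0.060) or 3 (0.057) or 5-FU+FMT replicate 1 (0.077). The third 5-FU+FMT library was within the Control range.

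Col23a1, a transmembrane collagen, was at 7.38, 6.69 and 5.49 CPM in Control, 0.727, 1.46 and 2.07 after 5-FU+Saline and 3.02, 1.97 and 2.09 after 5-FU+FMT. It was lower than Control after saline (log2 -2.15 ± 0.26, adjusted p = 3.18e-11) and with FMT (-1.45 ± 0.25, adjusted p = 1.06e-06). Between the 5-FU groups it was not called (0.70 ± 0.29, adjusted p = 0.0511), and the libraries overlapped. It was called higher with FMT with upper-quartile factors (0.0474), with library totals (0.0481), without 5-FU+Saline replicate 3 (log2 1.10, adjusted p = 0.00776) and without 5-FU+FMT replicate 2 (0.0368). Col7a1, the collagen of the anchoring fibrils that tie skin to its basement membrane, was at 1.79, 2.11 and 2.03 CPM in Control, 1.32, 0.6999 and 1.55 after 5-FU+Saline and 1.54, 2.74 and 2.89 after 5-FU+FMT. After 5-FU and saline it was not called against Control (-0.71 ± 0.35, adjusted p = 0.0725), but was called lower with upper-quartile factors (0.0458) and without 5-FU+Saline replicate 3 (0.0379). It was higher with FMT than with saline (0.98 ± 0.35, adjusted p = 0.0199), although 1 library of each group overlapped. It was no longer called when 5-FU+Saline replicate 2 (adjusted p = 0.133) was left out, nor without 5-FU+FMT replicate 2 (0.086) or 3 (0.106).

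Levels of different genes were compared per exon length, as TPM (reads per base of exon, scaled to the same total in each library). The length counts every annotated exon base of a gene, so ranks between genes depend on the annotation. On this scale Col4a2 was the most abundant collagen chain in every group, at 34.2 ± 0.678, 99.3 ± 1.43 and 70.7 ± 3.40 TPM in Control, 5-FU+Saline and 5-FU+FMT. Col4a1 was the next at 24.8 ± 1.06, 89.9 ± 2.73 and 59.0 ± 3.601, and Col16a1 the third at 22.8 ± 1.01, 22.6 ± 1.08 and 22.2 ± 1.04. In Control, the means of Col4a1 and Col16a1 differed by less than the sum of their SDs, as did those of Col16a1 and Col18a1 after 5-FU+Saline. The fourth place went to Col11a2 in Control, at 7.41 TPM, and to Col18a1 after 5-FU+Saline and 5-FU+FMT, at 21.1 ± 0.438 and 10.7 ± 1.17.

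The scale matters for the small falls. Col16a1 and Col11a2, called lower after 5-FU in CPM, were level in TPM, Col11a2 at 7.41, 7.38 and 7.44. Genes with less than 300 bases of exon took 24.1% of TPM in Control, 4.404% after 5-FU+Saline and 13.02% after 5-FU+FMT, but under 1% of counts in each group, so TPM of longer genes are not comparable between groups in the way CPM are. Col5a1 (2.66, 1.69 and 1.98 TPM), Col20a1 (1.66, 0.969 and 1.33) and Col23a1 (2.68, 0.784 and 1.18) were highest in Control on both scales.

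As a share of all collagen reads per exon length, the basement membrane genes held 58.5% ± 0.287 in Control, 67.8% ± 0.150 after 5-FU+Saline and 69.2% ± 0.688 after 5-FU+FMT. The fibril-associated genes went from 24.7% in Control to 8.84% after 5-FU+Saline and 12.97% after 5-FU+FMT. Beaded filament genes held 0.0130%, 5.36% and 2.18%, and multiplexins 2.02%, 7.65% and 5.74%. The share of the fibrillar genes was 10.97%, 9.22% and 8.33%, although 6 of their 9 tested members rose after 5-FU, and the whole also grew. Shares of 1 total are not independent of each other.

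**Figure D3:**
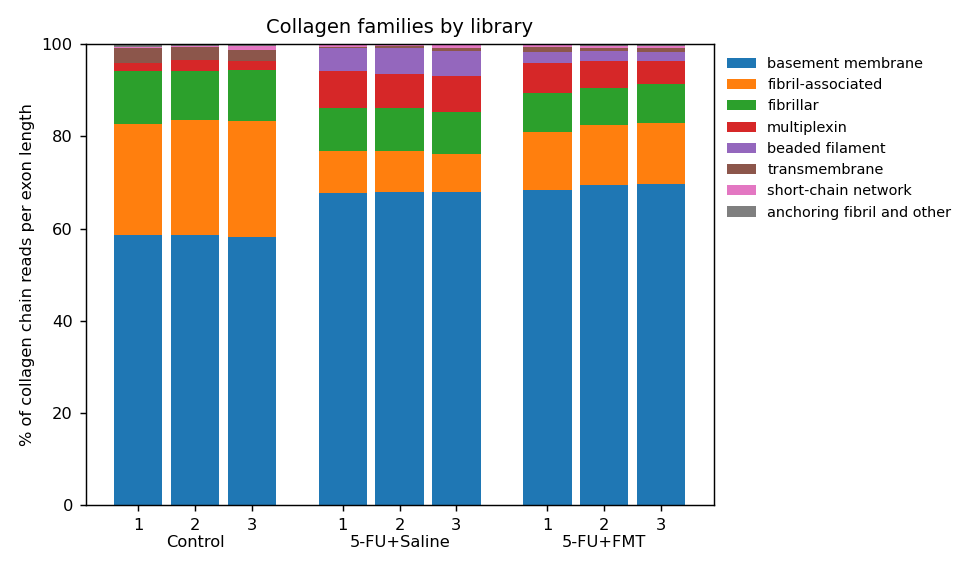
Share of each collagen family in all collagen chain reads per exon length (%), as stacked bars for the 3 libraries of each group. The 3 bars of a group are alike, and beaded filament genes (purple) are visible in the 5-FU groups, at 5.36% and 2.18%, but not in Control, at 0.0130%.

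The place of the 5-FU+FMT libraries between the other groups was described for each gene as a percentage, with the Control mean at 0 and the 5-FU+Saline mean at 100 on the CPM scale. Col4a2 and Col4a1, at 59.96% ± 5.52 and 56.1% ± 6.90, and Col18a1, at 49.4% ± 7.53, lay about midway. Col1a2 (30.7% ± 2.62), Col3a1 (27.2% ± 8.02), Col5a2 (24.1% ± 7.80) and Col6a1 (26.4% ± 4.91) lay nearer to Control. Col6a2 and Col6a3 were at 36.0% and 34.5%, Col1a1 at 43.1%, Col27a1 at 43.3% and Col12a1 at -9.70%. Col5a3 was at 51.0%, Col14a1 at 27.9% and Col8a1 at 25.5%. These places depend on the linear scale. On a log2 scale a risen gene between 0 and 100% lies further from Control, and more so for a larger fold at the same percentage. Differences between genes in these percentages thus need not hold on the log2 scale. The 7 genes called lower after 5-FU and saline lay between 56.2% for Col9a3 and 123% for Col4a4, with Col20a1 at 60.7%, Col11a2 at 68.0%, Col5a1 at 73.7%, Col16a1 at 76.5% and Col23a1 at 81.5%.

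**Figure D4:**
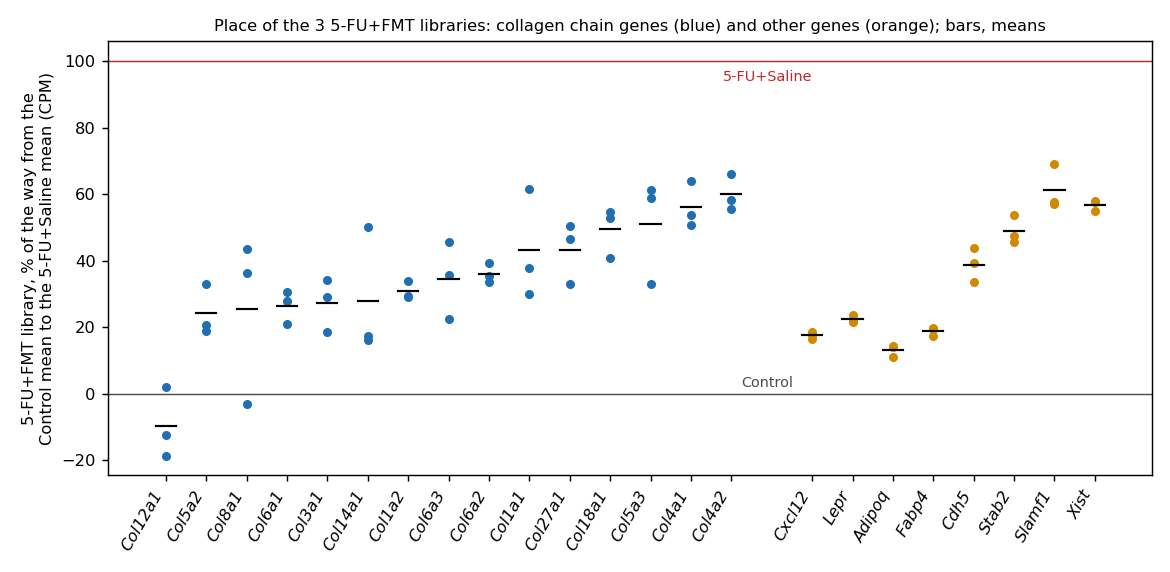
Place of each of the 3 5-FU+FMT libraries (points; black bars, means) between the Control mean (0%) and the 5-FU+Saline mean (100%) in CPM, for the 15 collagen chain genes called higher after 5-FU and saline (blue) and for stromal, endothelial, sort and Xist genes (orange). The libraries of Col4a1 and Col4a2 lie between 50.7% and 66.2%, those of Col6a1 between 20.9% and 30.4%, and the means of Cxcl12 and Lepr at 17.6% and 22.3%.

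Markers of other bone marrow cells moved in the same samples. Of 10 genes of CXCL12-abundant and adipogenic stroma (the niche cells that make Cxcl12), 9 were higher and 1 lower after 5-FU and saline, 1 was higher and 9 lower with FMT than with saline, and 9 were higher and 1 lower with FMT than in Control. Of all genes, 32.8% were called higher in the first comparison, 19.2% lower in the second and 25% higher in the third. All 10 stromal genes had counts in every group. Their summed level was 65.7 to 66.0 CPM in Control, 251 to 260.5 after 5-FU+Saline and 75.3 to 79.98 after 5-FU+FMT. Cxcl12 itself was at 2.08 to 2.76 CPM in Control, 124 to 129 after 5-FU+Saline and 22.9 to 25.3 after 5-FU+FMT. Lepr was at 0 to 0.160, 8.79 to 12.3 and 2.24 to 2.44 CPM. The gene that fell, Pdgfrb, had 57.1 CPM of the Control sum and was at 12.97 and 27.6 CPM in the 5-FU groups.

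Of 10 endothelial genes, 8 were higher and 1 lower after 5-FU and saline, 7 were lower and 1 higher with FMT than with saline, and 7 were higher and 1 lower with FMT than in Control. The shares of all genes called were 32.8% higher in the first comparison, 19.2% lower in the second and 25% higher in the third. The sum of the 10 endothelial genes was 421 to 443 CPM in Control, 601 to 626 after 5-FU+Saline and 504 to 529 after 5-FU+FMT, and none was at 0 in any group. Cdh5, which defines endothelium, was at 0 to 0.373 CPM in Control, 6.66 to 8.53 after 5-FU+Saline and 2.67 to 3.41 after 5-FU+FMT. Pecam1 was the gene called lower after 5-FU and saline. Tie1, among the 8 higher, lost that call with upper-quartile factors (adjusted p = 0.899) and in DESeq2 (0.064). It was also lost without Control replicate 1 (0.140) or 3 (0.278) and without 5-FU+Saline replicate 1 (0.077) or 2 (0.055). On the CPM scale, the 5-FU+FMT position of Cdh5 was 38.8% and that of Kdr 50.2%, beside 17.6% for Cxcl12 and 22.3% for Lepr. Most stromal and endothelial genes thus were high and low in the same groups as Col1a1, Col1a2, Col3a1, Col4a1, Col4a2 and the type VI chains. Their part in the collagen differences was not tested. This order of groups was not particular to them. Xist (56.8%) shared it, as did Ly6a (51.2%), Slamf1 (61.3%), Cd48 (69.6%) and Mecom (80.6%) of the stem cell and sort list. Kit, Procr, Hlf and Ptprc of that list fell after 5-FU and saline. In bulk RNA, fewer cells of a type and less RNA per cell cannot be told apart.

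The other marker lists did not share 1 direction. Their counts stand beside a background of 65.5% of all genes called after 5-FU and saline against Control. With FMT the background was 36.9% against saline and 46.6% against Control. Of 9 osteoblast genes, 4 were tested: Alpl (1.53, 25.1 and 13.6 CPM in Control, 5-FU+Saline and 5-FU+FMT) and Ibsp (0.128, 3.66 and 0.447) were higher after 5-FU and saline, and Runx2 (259, 124 and 183) was lower. Runx2 made up most of the list's sum of 265 to 274, 156 to 169 and 197 to 209 CPM. With FMT 1 of the 4 was higher and 2 lower than with saline, and 1 was higher and 1 lower than in Control. Sost had no count in any group, Dmp1 none in the 5-FU groups and Bglap2 none in Control and 5-FU+FMT. The fibroblast list summed to 564 to 578, 319 to 331 and 444 to 448 CPM, mostly Cd34, with Mfap5 at 0 after 5-FU+Saline and Dpt at 0 after 5-FU+FMT, and of 4 tested 2 were higher and 2 lower in each comparison. Perivascular genes summed to 3.25 to 3.94, 4.802 to 6.87 and 2.74 to 3.73 CPM, with Des at 0 in Control and Rgs5 at 0 after 5-FU+Saline, and of 3 tested 2 were higher after 5-FU and saline and 1 was lower with FMT than with saline. Cartilage genes summed to 10.1 to 13.9, 6.68 to 8.57 and 9.75 to 11.1 CPM, with Hapln1 at 0 in Control and 5-FU+FMT, Matn3 at 0 after 5-FU+Saline and Matn1 at 0 after 5-FU+FMT, and of 4 tested 1 was higher and 2 lower after 5-FU and saline and 1 was higher with FMT than with saline. Of the 8 stem cell and sort genes 4 were higher (Ly6a, Slamf1, Cd48 and Mecom) and 4 lower (Kit, Procr, Hlf and Ptprc) after 5-FU and saline. With FMT 4 of the 8 were higher and 3 lower than with saline. Schwann cell genes summed to 127 to 129.8, 115 to 130.3 and 111 to 126, with Sox10 at 0 in Control, and of 3 tested 2 were lower after 5-FU and saline and 1 was higher with FMT than with saline.

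Genes that build collagen molecules went both ways. Of 25 tested genes for collagen assembly and processing (hydroxylases, chaperones, proteinases and crosslinkers), 11 were higher and 5 lower after 5-FU and saline, 16 called where 65.5% of all genes were called, with a median log2 difference of 0.09. Crtap, a partner of the prolyl 3-hydroxylases, rose 1.90-fold (adjusted p = 2.79e-23) and P3h2, such an enzyme, 5.66-fold (adjusted p = 1.48e-15). P4ha1, a subunit of the prolyl 4-hydroxylase that stabilises the helix, fell 1.59-fold (adjusted p = 1.25e-12) and Plod3, a lysyl hydroxylase, 1.44-fold (adjusted p = 4.79e-12). With FMT against saline 2 of the 25 were higher and 10 lower, and against Control 6 were higher and 5 lower, where 36.9% and 46.6% of all genes were called.

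Most genes of a list of matrix genes, chosen as binding collagen, rose. The list includes laminin chains (Lama2, Lama4, Lama5, Lamb1, Lamb2 and Lamc1), so not every member binds collagen itself. Of 20 tested, 14 were higher and 1 lower after 5-FU and saline (median log2 1.74), 2 were higher and 12 lower with FMT than with saline (-0.75), and with FMT against Control 13 were higher and 7 were not called (1.09). Of all genes, 32.8% were called higher in the first comparison, 19.2% lower in the second and 25% higher in the third. Sparc, a collagen-binding glycoprotein of bone and vessels, rose 40.1-fold after 5-FU and saline (0.954, 34.1 and 8.58 CPM in Control, 5-FU+Saline and 5-FU+FMT, adjusted p = 2.79e-39). Lamc1, a laminin chain of basement membranes, rose 2.70-fold (28.3, 76.5 and 52.9 CPM, adjusted p = 2.29e-32). Thbs1, a thrombospondin, was the 1 gene that fell, 1.32-fold (adjusted p = 0.016), and that call was lost without the filter (0.057) and without Control replicate 3 (0.153) or 5-FU+Saline replicate 3 (0.119).

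Receptors and genes of collagen breakdown went both ways. Of 10 tested receptors, 6 were higher and 3 lower after 5-FU and saline, 2 higher and 5 lower with FMT than with saline, and 3 higher and 3 lower with FMT than in Control. The shares of all genes called in these comparisons were 65.5%, 36.9% and 46.6%. The 3 higher were Itgb1, Adgrg6 and Ddr2, a collagen receptor kinase, and only 1 or 2 of them were called with any library left out. Itgb1, the beta chain of all collagen-binding integrins, rose 1.28-fold (222, 284 and 266 CPM, adjusted p = 5.99e-17) and Adgrg6, an adhesion receptor of type IV collagen, 4.51-fold (adjusted p = 9.99e-10). Adgrg1, an adhesion receptor of type III collagen, fell 1.32-fold (adjusted p = 5.2e-28) and Itga2, the alpha chain of a collagen-binding integrin, 3.23-fold (adjusted p = 4.02e-14). With FMT against Control, the call of Ddr2 (adjusted p = 0.0489) was lost in 12 alternative fits, at 0.0569 with upper-quartile factors to 0.232 without 5-FU+FMT replicate 1. The call of Adgrg6 (adjusted p = 0.0449) was lost in 15 alternative fits, at 0.0508 with the replicate number as a block to 0.133 without Control replicate 1.

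Of 9 tested genes of collagen breakdown and its inhibitors, 4 were higher and 4 lower after 5-FU and saline, 2 higher and 2 lower with FMT than with saline, and 3 higher and 4 lower with FMT than in Control. The list holds Timp1, Timp2, Timp3 and Timp4, which encode inhibitors and not enzymes. After 5-FU and saline Timp3 was among the higher genes and Timp2 among the lower. All genes were called at 65.5%, 36.9% and 46.6%. Mmp9, a gelatinase that degrades denatured and type IV collagen, rose 22.2-fold (0.269, 6.36 and 2.46 CPM, adjusted p = 7.77e-19) and Fap, a serine protease of activated fibroblasts, 2.93-fold (adjusted p = 3.01e-05). Mmp2, the other gelatinase, fell 4.74-fold (28.6, 6.00 and 13.4 CPM, adjusted p = 3.52e-29) and Mmp14, its membrane-bound activator, 2.21-fold (adjusted p = 5.48e-14).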

How the data were processed

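Per the file headers, the deposited files hold counts of read pairs for each gene, from featureCounts over exons of GENCODE M25 with no strand option. Per the submitters' processing notes, the build was mm10 and the tools were Trim Galore 0.6.5, HISAT2 2.2.1, SAMtools and featureCounts 2.0.1. Of 56262 IDs, 55141 were given a symbol. Counts were filtered with filterByExpr (16595 genes), scaled by TMM and fitted over all 9 libraries in edgeR 4.0.16 (limma 3.58.1, R 4.3.3), with the quasi-likelihood F test and Benjamini-Hochberg adjustment; the SE is the log2 fold change over the root of F. Means are of CPM or TPM with SD over 3 libraries. Summed levels were compared with exact permutation tests. Counts of 16595 genes were simulated for 5-FU+Saline against Control, with 100 genes changed 2-fold and 100 changed 4-fold. Of these, 76% of 2-fold and 97% of 4-fold changes were recovered, with 15 false calls. In the data 65.5% of genes were called, a far larger share than was changed in the simulation, so its rates need not hold there. Alternatives were other scalings, filters, DESeq2 1.42.0, limma-voom, a replicate block, the compared groups alone and each library left out. Every tested collagen gene was named, and per companion list the 2 genes with the smallest p in each direction after 5-FU and saline. The genes and lists were chosen with earlier results of these data known. Replicate numbers of the labels did not pair libraries. Reads shared with overlapping genes cannot be split without strand.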

Additional observations from a re-analysis of the deposited data

How the results depend on the processing

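Of 33 counts of called genes and summed levels, 28 stayed within 1.5 times the reported value, or on the same side, under every alternative run. For the summed levels only the sign could change, because the permutation test cannot go below p = 0.1. Their size did move: 5-FU+FMT against Control went from 0.63 to 0.23 on the log2 scale without Col4a1 and Col4a2. Collagen chain genes called higher with FMT than with saline went from 2 to 1 with the stricter filter and with the compared groups alone, and ranged from 1 to 3 with a library left out. Genes of the matrix list called lower after 5-FU and saline went from 1 to 0 without the filter, and from 0 to 1 with a library left out. Assembly genes called higher with FMT than with saline went from 2 to 1 with RLE size factors, without the filter and with DESeq2, and from 1 to 2 with a library left out. Receptors called lower with FMT than with saline ranged from 3 to 5 with a library left out. Receptors called higher with FMT than in Control went from 3 to 1 with upper-quartile factors, without the filter, with DESeq2, with limma-voom and with the compared groups alone, and ranged from 1 to 2 with a library left out.

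Of 78 values of single collagen genes, 59 kept their direction and their side of the threshold throughout, and none that was called reversed. Uncalled values changed sign in 5 cases with a library left out. Col2a1 after 5-FU and saline ranged from -0.35 (without Control replicate 3) to 1.31 on the log2 scale, and was -0.044 without 5-FU+Saline replicate 2. Col4a5 with FMT against saline ranged from -0.078 (without 5-FU+Saline replicate 2) to 0.45, and was -0.019 without 5-FU+FMT replicate 2. Against Control with FMT, Col2a1 ranged from -1.37 to 0.30 and was 0.11 in limma-voom, Col4a5 from -0.39 to 0.085 and Col15a1 from -1.55 to 1.92. Upper-quartile factors moved the median of all genes to -0.10 in 5-FU+Saline against Control.

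Same-numbered libraries did not deviate together: their correlations ran from -0.0173 to 0.0194 over 9 pairs, and those of different numbers from -0.0296 to 0.0281 over 18. With the replicate number as a block, 1 count moved by over 1.5 times, receptors higher with FMT than in Control, from 3 to 1, and the counts of collagen chain genes were 15 and 7, 2 and 14, and 13 and 5 in the 3 comparisons, as without it. Depth limits the 18 untested genes and those with under 50 counts in a group.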
